A study of Mus musculus with 4 samples.

Results

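The genes described here are 39 members of the G1/S and DNA replication programme: D cyclins and their kinases, Myc factors, CDK inhibitors, E cyclins, E2F factors and the proteins that load, open and copy replication origins. The rule that chose them goes by gene name and role and uses no measured value, though it was written with earlier results of these data known, and all 39 were among the 17568 genes of the deposited expression table. RNA sequencing was done on forelimbs cultured with cyclopamine, an alkaloid that blocks the Hedgehog transducer Smoothened, and on forelimbs cultured as controls. Each condition had 2 libraries, and every library came from mouse embryos of the Swiss Webster strain, wild type, at stage E10.25 with 31 to 34 somites. No source used here gives the dose, the vehicle, the time in culture or the number of limbs per library. The labels speak of biological replicates without naming embryos or cultures, so p-values measure the spread between these libraries only. Following the rule of choice, 4 genes whose transcription follows growth signals (Ccnd1, Ccnd2, Cdk6 and Mycn) are given apart from 12 further G1/S regulators and 23 genes of the replication machinery.

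In the textbook scheme, growth signals raise D cyclins, which activate the kinases Cdk4 and Cdk6. These kinases phosphorylate the retinoblastoma protein, which frees E2F factors to switch on the genes of DNA synthesis. The MCM helicase is loaded on origins in G1 and opened in S phase. Hedgehog signalling is known to raise Ccnd1, Ccnd2 and Mycn in several embryonic tissues, and the limb bud at this stage grows by rapid division of its mesenchyme.

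The libraries held 12962633 and 12010965 reads in cyclopamine, and 9779589 and 13555492 reads in control. Values are CPM, reads per 1000000 of an effective library size set by the authors. The inhibitor's readout was clear: Gli1, a transcription factor gene induced by the pathway, averaged 6.37 ± 2.37 CPM in cyclopamine and 56.5 ± 0.343 CPM in control (SD, n = 2 each; limma adjusted p = 4.32e-06). Limb mesenchyme markers were well represented, with 9 genes summing to 1608 and 1824 CPM in cyclopamine and to 1555 and 1644 CPM in control. Of these 9, 3 were lower and 6 higher, with 0 past the threshold. Both cyclopamine libraries lay below both controls for 2, Fgf10 and Hand2, at 0.658 and 0.694 of the control mean. They lay above both controls for 4. Of all genes tested, 15.8% were below and 16.8% above in this way. Neural markers were not evenly held. Their 12 genes summed to 12.1 and 13.8 CPM in cyclopamine and to 52.7 and 90.9 CPM in control, 9 of 9 tested were lower and 7 fell past the threshold. In cyclopamine 4 of the 12 were at 0 in the first library and 5 in the second. Erythroid markers ran the other way, at 2137 and 1258 CPM in cyclopamine and 1309 and 607 CPM in control over 7 genes, with 0 past the threshold. Ectoderm and apical ridge markers, 9 genes, summed to 376 and 284 CPM in cyclopamine and to 379 and 302 CPM in control, and 2 of them fell. These were the ridge growth factor genes Fgf8, at 10.2 and 9.40 CPM in cyclopamine and 30.8 and 32.3 CPM in control (limma adjusted p = 0.000973), and Fgf4, at 0.316 and 0.486 CPM in cyclopamine and 5.67 and 9.70 CPM in control (limma adjusted p = 0.00128). Endothelial markers, 6 genes, summed to 397 and 456 CPM in cyclopamine and to 365 and 369 CPM in control, with 0 past the threshold. The part of these cells and genes in the differences below was not tested, and in bulk tissue fewer cells of a type and less RNA per cell cannot be told apart.

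Of the growth-signal genes, 3 had the largest negative log2 fold changes among the 39 members. Cdk6 and Ccnd1 were lower in both cyclopamine libraries than in both controls, at 0.504 and 0.611 of the control mean, and Mycn was at 0.681. Ccnd2 overlapped between the groups. In limma, fitted over all 13568 genes averaging 1 CPM or more and adjusted by Benjamini-Hochberg, 0 of the 39 members passed an adjusted p of 0.05, and 5 had an unadjusted p under 0.05, as did 5.82% of all genes tested. Across all genes tested, 0.236% passed as lower and 0.0442% as higher. On reads recovered from the CPM values, edgeR's quasi-likelihood test called 1 member, Cdk6, where it called 0.251% of genes as lower. DESeq2 called 2, Ccnd1 and Cdk6, where it called 0.31% as lower.

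Cdk6 encodes a kinase partner of the D cyclins. It measured 13.4 and 13.0 CPM in cyclopamine, against 24.8 and 27.8 CPM in control, with 170 and 161 reads against 240 and 378 reads. The groups did not overlap, and the gap between them was wider than the distance within either group. Its log2 fold change was -0.96 (SE 0.20, 95% interval -1.38 to -0.54), and the adjusted p was 0.0578 in limma, 0.0451 in edgeR and 0.0221 in DESeq2. The authors' deposited table gives Cdk6 a log2 fold change of -0.99 and a false discovery rate of 0.00837.

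Ccnd1 encodes cyclin D1, the D cyclin that growth factors and Hedgehog signalling most often induce. It measured 116 and 124 CPM in cyclopamine, against 175 and 217 CPM in control. Both cyclopamine libraries lay below both controls, and the wider spread was between the controls. The log2 fold change was -0.70 (SE 0.16, 95% interval -1.03 to -0.37), with an adjusted p of 0.0963 in limma, 0.126 in edgeR and 0.0127 in DESeq2. In the authors' deposited table Ccnd1 has a log2 fold change of -0.71 and a false discovery rate of 0.016. That table marks 2 of the 39 members, Ccnd1 and Cdk6, where it marks 0.347% of all genes as lower. Leaving out a library leaves 1 in its group, which is then assumed to vary like the other group. Without control 2 the log2 fold change of Ccnd1 was -0.55 (limma adjusted p = 0.516) and that of Cdk6 was -0.88 (adjusted p = 0.232). Without control 1 they were -0.85 (limma adjusted p = 0.0363) and -1.04 (adjusted p = 0.0586). Without cyclopamine 1 the limma adjusted p was 0.114 for Ccnd1 and 0.0442 for Cdk6, and without cyclopamine 2 it was 0.0433 for Ccnd1 and 0.0859 for Cdk6.

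Mycn encodes N-Myc, a transcription factor of growing embryonic mesenchyme. It measured 98.8 and 87.6 CPM in cyclopamine, against 129 and 145 CPM in control. The groups did not overlap, and the log2 fold change of -0.55 (SE 0.15, 95% interval -0.87 to -0.23) did not pass (limma adjusted p = 0.287). Ccnd2, which encodes cyclin D2, measured 550 and 603 CPM in cyclopamine, against 601 and 761 CPM in control. Its second cyclopamine library lay just above control 1, and control 2 alone stood apart (log2 fold change -0.23, SE 0.18, 95% interval -0.62 to 0.16). The median over the 4 growth-signal genes was -0.63 on the log2 scale, beside 0.00 over all genes tested. In the plot of levels by library these genes stand beside members whose groups lie close together.

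**Figure D1:**
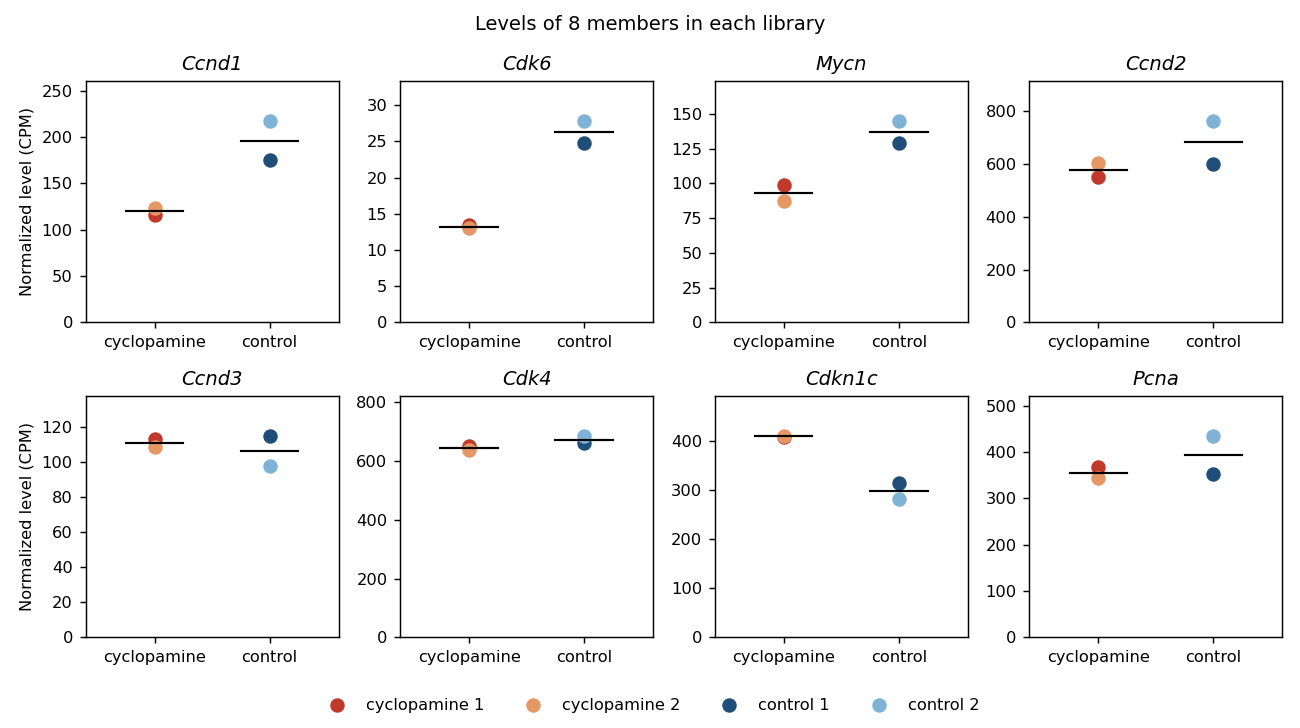
Normalized level (CPM, linear axis from 0) of 8 members in 2 cyclopamine and 2 control libraries. Points are libraries and bars are group means. Ccnd1, Cdk6 and Mycn lie lower in cyclopamine and Cdkn1c higher, without overlap, while Ccnd2, Ccnd3 and Pcna overlap and Cdk4 spans only 639 to 685 CPM.

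The stretches below lie before a RefSeq start of Cdk6 and of Mycn, 2 of the 3 growth-signal genes whose groups did not overlap. They are RefSeq promoters of build GRCm38.p6, 250 bases ending just before the annotated start, 5′ to 3′ on the gene's strand. Capitals mark matches to an E2F site form (TTTGGCGC, TTTCGCGC, TTTCCCGC or TTTGCCGC), to CCAAT, to the GLI site TGGGTGGTC or to TTTGAA, on either strand. The Cdk6 stretch lies at chr5:3343643-3343892 on the plus strand and holds no match. In GENCODE vM21 the gene starts at 3341485, so this stretch lies inside it and misses the sequence before the GENCODE start. The Mycn stretch lies at chr12:12941837-12942086 on the minus strand and reaches across the GENCODE start at 12941914. It holds 3 E2F forms, of which a pair overlaps, and TTTGAA as its reverse complement. The RefSeq promoters used here held no entry for Ccnd1 or Ccnd2, so no such stretch of these genes is shown.
Cdk6: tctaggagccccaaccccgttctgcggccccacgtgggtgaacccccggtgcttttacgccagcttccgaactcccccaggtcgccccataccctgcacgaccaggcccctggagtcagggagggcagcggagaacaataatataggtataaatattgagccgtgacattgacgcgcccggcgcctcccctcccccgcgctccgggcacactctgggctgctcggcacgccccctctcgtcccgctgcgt
Mycn: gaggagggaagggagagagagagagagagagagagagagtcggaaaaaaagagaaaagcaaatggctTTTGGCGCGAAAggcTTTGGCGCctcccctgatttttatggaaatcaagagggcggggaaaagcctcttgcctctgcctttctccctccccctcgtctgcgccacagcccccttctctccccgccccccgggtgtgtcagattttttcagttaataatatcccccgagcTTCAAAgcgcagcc

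The closest relatives of these genes did not share their size of difference. Ccnd3, which encodes cyclin D3, measured 113 and 109 CPM in cyclopamine, against 115 and 97.7 CPM in control (log2 fold change 0.06, 95% interval -0.26 to 0.38). Cdk4, the kinase that shares the D cyclins with Cdk6, measured 651 and 639 CPM in cyclopamine, against 661 and 685 CPM in control. Its groups were separate by a margin of only 10 CPM (log2 fold change -0.06, 95% interval -0.43 to 0.31). Myc measured 30.1 and 31.0 CPM in cyclopamine, against 35.7 and 28.9 CPM in control, and the groups overlapped. For Cdk6 and Cdk4, and for Ccnd1 and Ccnd3, the difference between the 2 log2 fold changes was not tested.

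Per exon length, on a scale of CPM per kilobase of merged exons, the D cyclins kept Ccnd2 first. Ccnd2 stood at 81.9 and 89.8 CPM per kilobase in cyclopamine and at 89.5 and 113 in control. Ccnd1 stood at 31.0 and 33.1 CPM per kilobase in cyclopamine, below Ccnd3 at 46.3 and 44.4 in the same libraries. In control, Ccnd1 at 46.8 and 58.0 CPM per kilobase overlapped with Ccnd3 at 47.0 and 39.9. Among all 39 members Cdk4 was the most abundant on this scale, at 314 CPM per kilobase in cyclopamine and 328 in control, and Cdk6 the least, at 1.15 in cyclopamine and 2.28 in control. Pcna, which encodes the sliding clamp of the polymerases, came second in control (234 CPM per kilobase in cyclopamine and 259 in control).

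**Figure D2:**
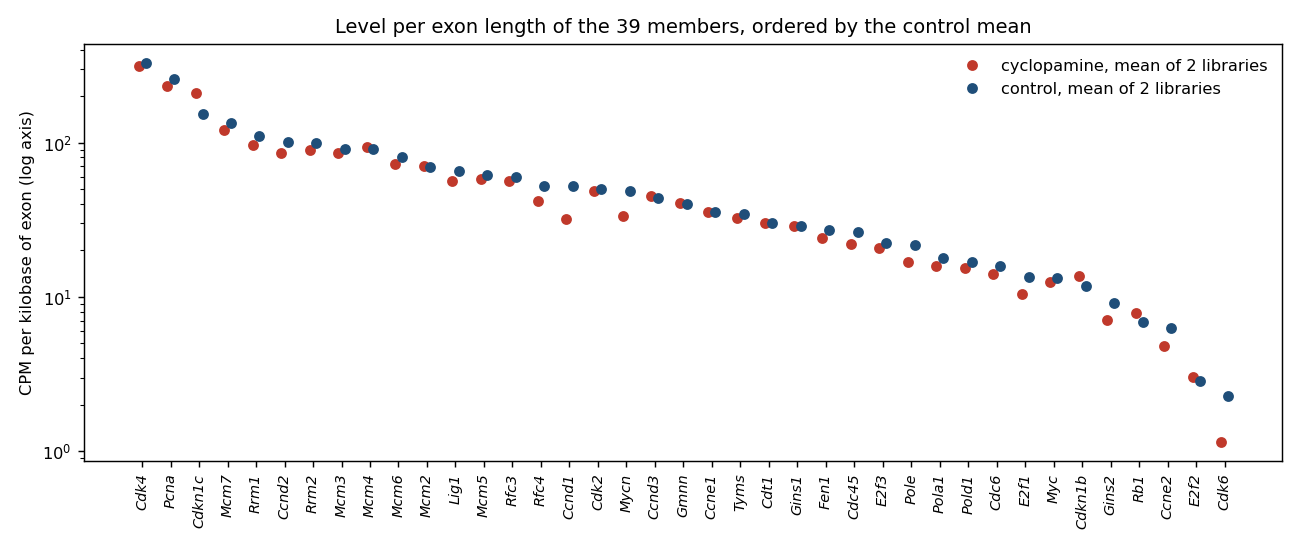
Mean level per kilobase of merged exons (log axis) of the 39 members, ordered by the control mean, with cyclopamine and control as separate points. The scale runs from Cdk4 at 328 CPM per kilobase in control to Cdk6 at 1.15 in cyclopamine, and the distance between the points of a gene is widest at Cdk6 and Ccnd1.

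The 3 members that restrain entry into S phase were all higher in cyclopamine, and 0 of 3 passed in limma. Of all genes tested 49% were lower. An unadjusted p under 0.05 was reached by 1 of the 3, and on the higher side by 3.04% of all genes tested. Related genes outside the members went both ways without passing. Log2 fold changes were -0.25 for the inhibitor gene Cdkn1a and -0.31 for Rbl1, a relative of Rb1. They were 0.34 for the inhibitor gene Cdkn2d and 0.27 for Rbl2, another relative of Rb1. Cdkn1c encodes p57, an inhibitor of cyclin-dependent kinases linked to cells leaving the cycle. It measured 408 and 410 CPM in cyclopamine, against 314 and 281 CPM in control, without overlap. Its log2 fold change was 0.46 (SE 0.16, 95% interval 0.13 to 0.80, limma adjusted p = 0.542). Rb1, which encodes the retinoblastoma protein, averaged 36.6 ± 1.54 CPM in cyclopamine and 32.1 ± 2.93 CPM in control (SD, n = 2 each), a narrow separation (log2 fold change 0.19, SE 0.17). Cdkn1b, which encodes the inhibitor p27, measured 66.3 and 57.2 CPM in cyclopamine, against 62.4 and 44.7 CPM in control, and here the groups overlapped. Without control 2 its log2 fold change was -0.019. Of all 39 members, Cdkn1c and Rb1 were the 2 with both cyclopamine libraries above both controls, a pattern found in 16.8% of all genes tested.

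E cyclins, Cdk2 and the E2F factors had log2 fold changes from -0.37 to 0.09. E2f1, which encodes an activating E2F factor, measured 29.8 and 35.7 CPM in cyclopamine, against 43.7 and 40.9 CPM in control. It was the single member of this group whose libraries separated, and it did not pass (log2 fold change -0.37, SE 0.17, limma adjusted p = 0.845). The other activating factors overlapped, with E2f2 at 15.4 and 13.1 CPM in cyclopamine and 11.5 and 15.6 CPM in control. E2f3 stood at 112 and 111 CPM in cyclopamine and 112 and 126 CPM in control. Ccne1 and Ccne2 encode the E cyclins, which activate Cdk2 at the start of S phase. Ccne1 measured 75.5 and 67.3 CPM in cyclopamine and 61.8 and 79.9 CPM in control. Ccne2 averaged 15.4 ± 2.10 CPM in cyclopamine and 20.2 ± 8.60 CPM in control (SD, n = 2 each), and its controls, at 14.1 and 26.3 CPM, were the farthest apart of any member on the log2 scale. Cdk2 measured 111 and 124 CPM in cyclopamine and 116 and 126 CPM in control. Over the 12 further G1/S regulators, 6 were lower and 6 higher, with a median log2 fold change of -0.01.

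**Figure D3:**
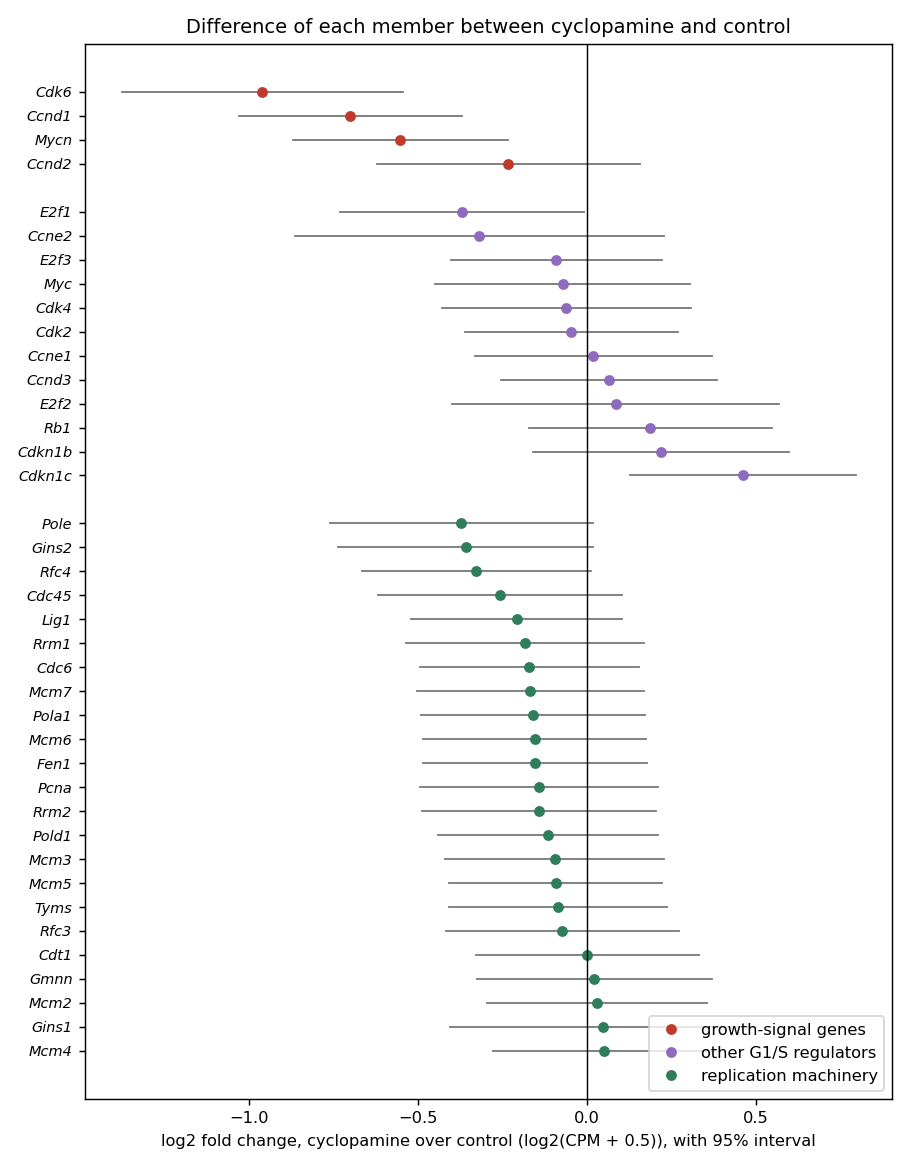
Log2 fold change of each member, cyclopamine over control on the log2(CPM + 0.5) scale, as points with 95% intervals from limma, grouped by role and ordered by size. The intervals of Cdk6, Ccnd1, Mycn and E2f1 lie below 0 and that of Cdkn1c above it, before adjustment for the number of genes. All 23 intervals of the replication machinery reach across 0.

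Genes of the replication machinery are textbook targets of E2F factors, and E2F site letters occurred in many of their promoters. RefSeq's promoter table (build GRCm38.p6, 250 bases before to 50 after each start) matched 28 of the 39 members. An E2F form, spelled out above and searched on both strands, occurred in 14 of these 28 members and in 10 of the 18 matched genes of the replication machinery (55.6%). In the whole table it occurred in 2.6% of 27025 genes, and in 4.69% of the 10015 genes that were also tested for expression. Some genes have several starts, and counted by window the form occurred in 40% of 35 member windows and 2.26% of all 32851 windows. CCAAT occurred in 57.1% of matched members, 41.1% of all genes in the table and 43.1% of those also tested. For TTTGAA these shares were 21.4%, 20.2% and 14%. The GLI site occurred in 0 of 28 matched members and in 0.289% of all genes in the table. At so low a share, a count of 0 among 28 genes tells little. Of the 4 growth-signal genes only 2, Cdk6 and Mycn, were matched, so Ccnd1 and Ccnd2 were not searched. A match is a run of letters and shows no binding.

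The windows below show E2F forms in capitals with 11 flanking bases on each side. They come from genes of helicase, helicase loading, primase-polymerase and kinase. All lie upstream of a RefSeq start, though those of Mcm7 and Cdc6 lie inside the gene as annotated in GENCODE vM21. Mcm5 lies at chr8:75109345-75109374 (plus strand), Mcm6 at chr1:128359797-128359826 (minus), Mcm7 at chr5:138172030-138172059 (minus), Cdc6 at chr11:98908002-98908031 (plus), Pola1 at chrX:93632275-93632304 (minus) and Cdk2 at chr10:128705173-128705202 (minus). In Mcm5 and Mcm6 the form shown overlaps another on the opposite strand.
Mcm5: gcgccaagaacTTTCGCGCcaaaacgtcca
Mcm6: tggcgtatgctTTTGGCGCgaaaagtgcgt
Mcm7: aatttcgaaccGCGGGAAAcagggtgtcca
Cdc6: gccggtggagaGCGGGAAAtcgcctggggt
Pola1: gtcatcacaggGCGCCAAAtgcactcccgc
Cdk2: aaccaggaactGCGGGAAAgttgtgcagct

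**Figure D4:**
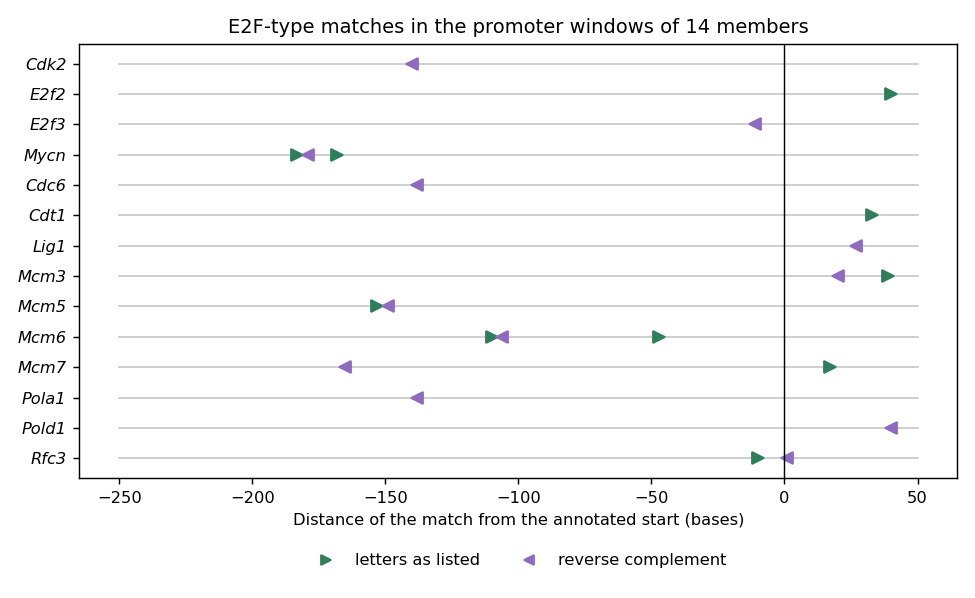
Positions of the E2F forms relative to a RefSeq start (0, vertical line) in the 14 members that hold one. Each grey line is a window of 250 bases before to 50 after a start, and triangles mark the first base of a match and its strand. Matches run from -183 in Mycn to 40 in E2f2 and Pold1, with 3 in Mycn and 3 in Mcm6.

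Across the 23 genes of the replication machinery, differences between cyclopamine and control were small. In limma 0 of 23 passed and 0 had an unadjusted p under 0.05, and edgeR and DESeq2 also called 0 of 23. Log2 fold changes ran from -0.37 (Pole) to 0.05 (Mcm4), with 18 genes lower, 5 higher and a median of -0.14. Over all genes tested, 49% were lower. Both cyclopamine libraries lay below both controls for 9 of the 23, and for 14 of all 39 members, while the same held for 15.8% of all genes tested. The controls also differed from each other. Control 2 was above control 1 for 17 of the 23, beside 50.6% of all genes tested. The median difference was 0.16 on the log2 scale. For the growth-signal genes control 2 was above control 1 for 4 of 4, with a median difference of 0.24. The part of this in the differences between conditions was not tested. Centred on each gene's mean, the machinery's median deviation was -0.02 and -0.09 in the cyclopamine libraries, and -0.02 in control 1 and 0.16 in control 2. Control 1 thus sat within the range of the cyclopamine libraries. For the growth-signal genes the same medians were -0.29 and -0.33 in cyclopamine, and 0.19 and 0.43 in control. By median both controls thus stood apart, though Ccnd2 overlapped between the groups.

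**Figure D5:**
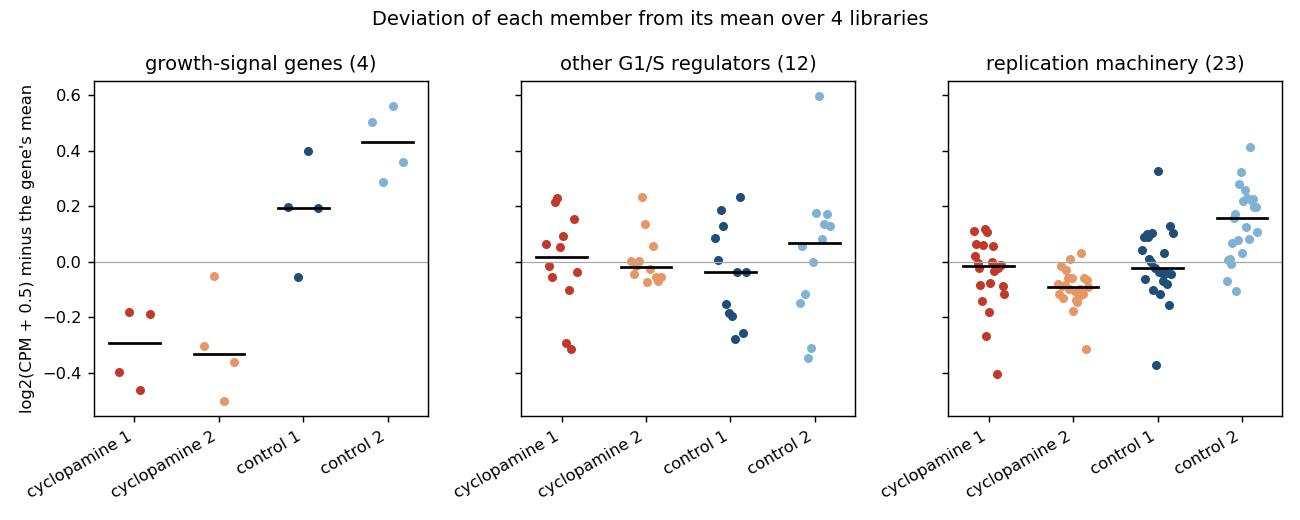
Deviation of each member's log2(CPM + 0.5) from its mean over the 4 libraries, for 4 growth-signal genes, 12 other G1/S regulators and 23 genes of the replication machinery. Points are genes and bars are medians. By median, both controls lie above both cyclopamine libraries for the growth-signal genes, of which Ccnd2 overlaps between the groups. For the replication machinery the median of control 2 (0.16) stands above those of the other libraries.

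The 6 subunits of the MCM helicase, which unwinds DNA at the fork, had log2 fold changes from -0.17 to 0.05. Mcm2 measured 254 and 223 CPM in cyclopamine, against 242 and 224 CPM in control (log2 fold change 0.03, 95% interval -0.30 to 0.36). Mcm4 measured 347 and 329 CPM in cyclopamine, against 318 and 334 CPM in control, and was the highest of the 23 by log2 fold change (0.05). Mcm3 (271 and 246 CPM in cyclopamine, 284 and 267 CPM in control) and Mcm5 (206 and 195 CPM in cyclopamine, 222 and 206 CPM in control) overlapped as well. Mcm6 and Mcm7 separated by group without passing. Mcm6 measured 329 and 305 CPM in cyclopamine, against 356 and 350 CPM in control, and Mcm7 354 and 355 CPM in cyclopamine, against 379 and 419 CPM in control, with log2 fold changes of -0.15 and -0.17 (SE 0.16 each).

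Cdc6 and Cdt1 load the helicase, and geminin, encoded by Gmnn, blocks Cdt1 after origins have fired. Cdc6 separated by group, at 64.9 and 70.2 CPM in cyclopamine and 71.5 and 80.7 CPM in control. Cdt1 had equal means, at 68.2 and 62.7 CPM in cyclopamine and 70.3 and 60.8 CPM in control. Gmnn measured 51.8 and 44.5 CPM in cyclopamine and 44.4 and 50.3 CPM in control, again overlapping. Cdc45 and the GINS subunits complete the active helicase. Gins2 measured 27.5 and 27.6 CPM in cyclopamine, against 39.4 and 32.0 CPM in control (log2 fold change -0.36, SE 0.18, limma adjusted p = 0.875). Cdc45 measured 42.7 and 51.9 CPM in cyclopamine, against 50.7 and 62.6 CPM in control, and Gins1 33.1 and 29.5 CPM in cyclopamine, against 23.6 and 38.6 CPM in control. Both overlapped, and for Gins1 the 2 controls bracketed both cyclopamine libraries.

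Ribonucleotide reductase, made of the products of Rrm1 and Rrm2, and thymidylate synthase, encoded by Tyms, supply the building blocks of DNA. Rrm1 measured 391 and 384 CPM in cyclopamine, against 402 and 481 CPM in control. Rrm2 measured 205 and 187 CPM in cyclopamine, against 190 and 246 CPM in control. Tyms measured 110 and 95.9 CPM in cyclopamine, against 103 and 116 CPM in control. All 3 were highest in control 2, and control 1 was near or within the range of the cyclopamine libraries.

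Pola1, Pold1 and Pole encode the catalytic subunits of the replicative polymerases alpha, delta and epsilon. Pole had the most negative log2 fold change of the machinery (-0.37, SE 0.18, 95% interval -0.76 to 0.02), yet its libraries overlapped, at 105 and 143 CPM in cyclopamine and 135 and 186 CPM in control. Pola1 measured 87.6 and 82.2 CPM in cyclopamine and 85.4 and 105 CPM in control. Pold1 measured 54.9 and 51.8 CPM in cyclopamine and 56.7 and 58.8 CPM in control, a separation of under 2 CPM. The log2 fold change of Pole moved with each library left out, to -0.15 without cyclopamine 1, -0.59 without cyclopamine 2, -0.60 without control 1 and -0.14 without control 2.

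The clamp Pcna measured 366 and 343 CPM in cyclopamine, against 353 and 434 CPM in control, an overlap. Rfc3 and Rfc4 encode subunits of the complex that loads the clamp. Rfc4 separated, at 60.7 and 49.1 CPM in cyclopamine and 67.0 and 70.2 CPM in control (log2 fold change -0.33, SE 0.16), while Rfc3 measured 75.7 and 73.2 CPM in cyclopamine and 68.5 and 89.5 CPM in control. Fen1 and Lig1 encode the flap endonuclease and the ligase that finish the lagging strand. Lig1 had the tightest groups among these genes, at 197 and 200 CPM in cyclopamine and 229 CPM in each control (log2 fold change -0.21, SE 0.15, 95% interval -0.52 to 0.10). Fen1 measured 57.9 and 58.8 CPM in cyclopamine and 59.7 and 70.7 CPM in control.

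A wider list of 71 genes of origin licensing, the fork, nucleotide supply, S-phase chromatin and G1/S control, none of them members, gave a like picture. Of 70 tested, 60 were lower and 10 higher, where 49% of all genes tested were lower. Both cyclopamine libraries lay below both controls for 24, a pattern found in 15.8% of all genes tested. The median log2 fold change was -0.13. The median was -0.22 without control 1, -0.07 without control 2 and -0.07 without cyclopamine 2. In limma 0 of the 70 passed and 1 had an unadjusted p under 0.05, where 5.82% of all genes tested had one. By that unadjusted p the edgeR count was 2, where 6.02% of all genes tested had one, and the DESeq2 count was 1, where 3.85% had one. Neither tool called any of the 70 past the adjusted threshold. The smallest p belonged to Mcm10, which encodes a factor that helps open the loaded helicase, at 85.6 ± 0.702 CPM in cyclopamine and 116 ± 17.4 CPM in control (SD, n = 2 each; log2 fold change -0.43, SE 0.15, limma adjusted p = 0.612). The next were Chtf18, Dut, Rbl1, Rfc5 and Ticrr, with log2 fold changes from -0.38 to -0.27 and both cyclopamine libraries below both controls. Control 2 was above control 1 for 52 of the 70, with a median difference of 0.20 on the log2 scale, larger in size than the median difference between the conditions.

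Some members are harder to count than others. Exons of 15 of the 39 overlap exons of a gene on the opposite strand in GENCODE vM21, and no source used here says whether counting was stranded. The overlap covers 78.8% of the exon bases of Fen1, 70.7% of those of Gins2 and 31.2% of those of Cdk4. It covers 30.3% of those of Cdkn1c and 21.9% of those of Ccnd1, but 0.954% of those of Cdk6, and none was found for Mycn. Processed or other pseudogenes with at least 95% identity over 200 bases were found for 6 members: Cdk6 (Gm16505, 96.1% over 233 bases), Cdc6, Rrm2, Pcna (Pcna-ps2, 99.2% over 781 bases), Mcm7 (Gm5487, 97.7% over 2157 bases) and Ccnd3 (Ccnd3-ps). Levels of these genes are therefore less certain. In GRCm38 the 4 growth-signal genes lie on chromosome 7 at 144929931 to 144939925 (Ccnd1), chromosome 6 at 127125162 to 127152193 (Ccnd2), chromosome 5 at 3341485 to 3531008 (Cdk6) and chromosome 12 at 12936093 to 12941914 (Mycn).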

How the data were processed

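The labels put 4 libraries in 2 groups, 2 cyclopamine and 2 control. The submitters' processing notes name, with no role or order, the build mm10 and the tools edgeR 3.4.2, HTSeq 0.5.4p5, SAMtools, Bowtie and TopHat2 2.0.9. The deposited expression table holds a normalized signal scaled by the authors to CPM of an effective library size. Every value was a whole multiple of the worth of a read (100% in each library, within 0.01 of a read), so reads were recovered. A second table deposited by the authors holds, for cyclopamine over control, log2 fold changes, p-values and false discovery rates, with the test not stated.

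Genes averaging 1 CPM or more were compared with limma 3.58.1 (R 4.3.3), fitted with an intensity trend to log2(CPM + 0.5), two-sided, Benjamini-Hochberg adjusted over 13568 genes at 0.05. This scale understates changes of low genes. With 2 libraries a group, precision rests on a spread shared across genes. edgeR 4.0.16 and DESeq2 1.42.0 on recovered reads, other filters, pseudocounts, scaling and variance models, a replicate block and leaving out each library were alternatives. The fits were tested on simulated data, in which changed genes differed by more than any member did in the limma fit. That test therefore does not show how well differences of the members' size are found. The members and lists were chosen with earlier results of these data known. All members are named, with the 6 genes of smallest p from the wider list and some relatives of the CDK inhibitor genes and Rb1. Older symbols were matched through RefSeq synonyms, and 1 erythroid marker, Hba-a1, was not matched.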

Additional observations from a re-analysis of the deposited data

How the results depend on the processing

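The 39 members gave 546 log2 fold changes under the alternatives. Other filters, the fit without an intensity trend, the replicate block and the looser threshold leave a member's log2 fold change as it was. A sign could change only under the other alternatives. There the direction of 24 members held, 21 of them lower, and 15 changed sign when a library was left out. No member passed the threshold in limma, against 1 in edgeR, 2 in DESeq2, 2 at an adjusted p under 0.1 and 4 with the replicate number as a block (Ccnd1, Cdk6, Mycn and Cdkn1c). Of the wider list's 6 named genes, Mcm10 passed with the block (limma adjusted p = 0.0253). Leaving out a library gave 0 to 1. All genes past the threshold numbered 38 in limma, 2 with no filter on low values, 20 with the plain library size, 0 with no intensity trend (837 at an unadjusted p under 0.05), 351 with the block (186 higher and 165 lower) and 43 to 122 without a library, at 79 without control 1, 122 without cyclopamine 1 and 84 without cyclopamine 2. The labels tie replicate numbers to no shared litter or day. Deviations of same-numbered libraries from their group means correlated over genes (r = 0.27), and 2 pairs cannot show a pairing.

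The median log2 fold change was -0.74 to -0.51 for growth-signal genes, -0.10 to 0.024 for the 12 regulators and -0.24 to -0.083 for the machinery without a library. The lowest of each was without control 1. Members with both cyclopamine libraries below both controls numbered 14, where the share of all genes tested was 15.8%. Without cyclopamine 1 they numbered 22 (share of all genes tested 32.4%) and without cyclopamine 2 they numbered 19 (31.6%). Without control 1 they numbered 28 (33.6%) and without control 2 they numbered 19 (32.3%).

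Without a library, log2 fold changes ran from -0.053 to 0.18 for Ccnd3, -0.16 to 0.20 for Ccne1, -0.76 to 0.12 for Ccne2, -0.12 to 0.034 for Cdk2, -0.019 to 0.46 for Cdkn1b, -0.10 to 0.11 for Cdt1, -0.13 to 0.30 for E2f2, -0.30 to 0.40 for Gins1, -0.086 to 0.13 for Gmnn, -0.067 to 0.13 for Mcm2, -0.22 to 0.080 for Myc, -0.29 to 0.0077 for Pcna, -0.26 to 0.12 for Rfc3, -0.33 to 0.046 for Rrm2 and -0.19 to 0.015 for Tyms. Cdt1 was -0.0029 in edgeR and -0.0020 in DESeq2, and Gins1 was -0.00095 in edgeR. Where a sign changed, the cause was not tested. With 2 libraries a group, differences the size of the machinery's median were not detectable gene by gene.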
